A study of Gallus gallus with 3 samples.

Results

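The genes described here are the synaptic vesicle, SNARE and RAB genes of the chicken embryo vestibular hair cell. They were chosen by symbol alone: a symbol that begins with SYT, STX, STXBP, VAMP, SNAP, CPLX, SV2, SYP, SYN, UNC13, RIMS or RAB, with a digit or a letter from A to D next, or the symbol *SYP* itself, with *SNAP25* left out. The rule took 133 of the 30108 genes in the tables, of which 15097 carry a symbol. The rule uses no measured value. Of the members, 56 are RAB GTPases and 9 are RAB effectors or regulators, and 59 are named for vesicles, SNAREs or transmitter release. The letters also brought in genes of other roles: 4 subunits of the snRNA-activating complex (*SNAPC1*, *SNAPC3*, *SNAPC4* and *SNAPC5*), the clathrin adaptor gene *SNAP91*, and *SYNCRIP*, *SYNC*, *SYNDIG1* and *SYNDIG1L*.

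RAB GTPases are small switches that sit on membranes when bound to GTP and recruit the effectors that move, tether and sort vesicles, each member acting on a limited set of compartments. SNARE proteins on a vesicle and on its target membrane (the VAMP, syntaxin and SNAP families) zip together to fuse the membranes, and Munc18 proteins (STXBP) and UNC13 proteins prepare that assembly while synaptotagmins and complexins tie it to calcium. Vestibular hair cells release glutamate from ribbon synapses, where release depends on otoferlin, and type I hair cells face a calyx-shaped afferent terminal whereas type II hair cells contact bouton terminals.

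There were 3 libraries of *Gallus gallus*, 1 for each group, which leaves every value without a replicate and every comparison without a test. The first was the cytoplasm of a single type I hair cell at E20 (embryonic day 20), the next that of a single type II hair cell at E19, both typed by their currents in whole-cell patch-clamp and aspirated through the patch pipette from a semicircular canal crista. The last was RNA of whole ampullary cristae at E16, pooled from 22 embryos. All came from fertilized Isa Brown eggs, in which both sexes occurred, with no genetic change or drug treatment described. Where in the crista each cell sat is not known. A library of 1 cell stands for that cell only. Hair cell and whole crista differ in embryonic day, amount of RNA and read layout as well as in cell content, and these cannot be told apart in any ratio between them.

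The libraries held 10779664 estimated reads (type I), 11943061 (type II) and 67428006 (whole crista), and 2340, 2381 and 18001 genes had at least 1 estimated read, the threshold for calling a gene detected here. Of the 2340 genes of the type I cell, 84.4% were also detected in the type II cell, and of its 2381 genes 82.9% were detected in the type I cell. Genes encoded in mitochondria took 5.5% and 7.38% of the reads of the hair cells and 0.879% of the whole crista. Of 13 hair cell markers, 7 were detected in the type I cell and 6 in the type II cell, among them *OCM1* and *KCNA10*, while *MYO7A*, *TMC2*, *GFI1*, *CALB2*, *POU4F3* and *ESPN* had no read in either. None of 12 neuronal markers had a read in a hair cell, and all 12 had reads in the whole crista. The markers of melanocytes, endothelium, erythroid and immune cells had none in a hair cell. The mesenchymal genes *COL1A1* (7113 and 5292 reads in the type I and type II cell) and *COL1A2* (3221 and 2404 reads) and the supporting cell and glial gene *SOX10* (2612 and 3120 reads) were read in both cells. Of 8 supporting cell markers, 2 were detected in the type I cell and 1 in the type II cell. *SOX2*, *OTOA*, *TECTA*, *TECTB*, *PROX1* and *FABP7* had no read in either, and *LFNG* had 1 read in the type I cell alone. The paper, by contrast, lists *SOX2* among the transcripts found in both cells. Of the mesenchymal markers, *COL3A1*, *TWIST1* and *PDGFRA* had no read in either cell. The 5 mesenchymal markers summed to 480 TPM in the type I cell, 369 TPM in the type II cell and 1786 TPM in the whole crista. *COL1A2* stood at 82.9 and 62.2 TPM in the type I and type II cell, against 1174 TPM in the whole crista. *COL1A1*, at 397 and 307 TPM against 356 TPM, was near the whole-crista level. *SOX10*, at 70.8 and 86.7 TPM against 52.9 TPM, was above it. The part of these mesenchymal, supporting cell and glial genes in the values below was not tested.

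Few members were detected in the hair cells, as held for all genes, and most of them were detected in both cells. At least 1 read was found for 13 of 133 members (9.77%) in the type I cell, where 7.77% of all genes were detected, and for 15 (11.3%) in the type II cell, where 7.91% were. Both cells held 12 members (9.02%, against 6.56% of all genes). These are 92.3% of the members in the type I cell and 80.0% of those in the type II cell. Over all genes the same shares were 84.4% and 82.9%. In the whole crista 126 members (94.7%) were detected, against 59.8% of all genes. All 12 members found in both cells had at least 1 TPM (a level scaled to gene length and to the whole library) in the whole crista, where 114 members reached that level. Their share of those 114 was 10.5%, below the 15% of all genes with a symbol that were detected in both hair cells at that whole-crista level.

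The members read in 1 hair cell alone numbered 4, with 1 or 2 reads each. *RAB36* was the 1 member with a read in the type I cell alone (0.752% of members, against 1.21% of all genes), with 1 read. *RAB26* with 2 reads, *RAB11B* with 1 and *RAB42* with 1 were the 3 members of the type II cell alone (2.26%, against 1.35%). In the whole crista *RAB36* had 238 reads (12.7 TPM) and *RAB42* 29 (0.441 TPM), and their gene models overlap other genes (*BCR* and *RSPH14*, and *TAF12*). Reads this few do not separate the cells: the exact Poisson 95% interval of 2 reads runs from 0.242 to 7.22, and a library with none still allows 3 reads. Of the 11 members with at least 10 reads in a hair cell, 0 had no read in the other, while 0.612% of all such genes did. Such intervals account for the counting of reads alone, because reads copied in amplification were not traced to their molecules of origin, and RNA can also be lost in aspiration and reverse transcription.

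**Figure D1:**
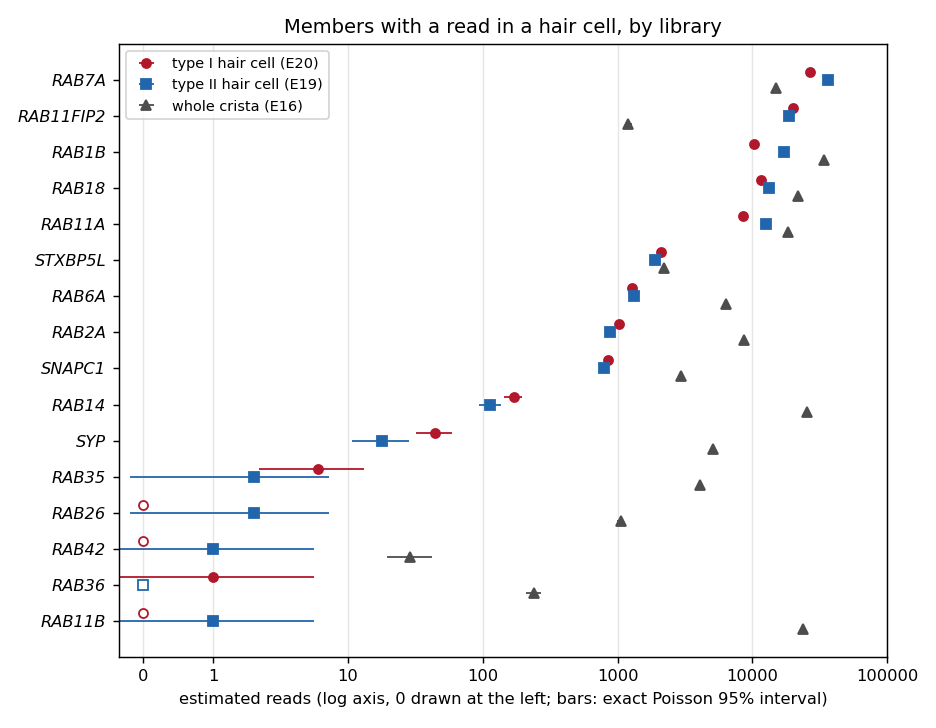
Estimated reads (horizontal log axis, 0 drawn at the left) of the 16 members with a read in a hair cell, 1 row a gene, in the type I hair cell (red circles), the type II hair cell (blue squares) and the whole crista (grey triangles); bars are exact Poisson 95% intervals and open symbols have no read. The marks of both hair cells lie close together down to *RAB14*, and the lowest 5 genes have fewer than 10 reads in each hair cell.

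The members' summed share of the library was 0.768% of reads for the type I cell, 0.862% for the type II cell and 0.742% for the whole crista. In TPM the shares were 0.551%, 0.599% and 0.698% in the same order, so that the whole crista was lowest in reads but highest in TPM. The shares were of similar size, although the genes behind them differed between the hair cells and the whole crista. RAB GTPases held 84.6% of the members' TPM in the type I cell, 87.9% in the type II cell and 65.2% in the whole crista. *RAB7A* alone held 51.0% and 52.5% of it in the hair cells, whereas the leading member of the whole crista, *RAB1B*, held 10.5%. The members that were detected in a hair cell had a median of 55.7 TPM (type I cell) and 42.6 TPM (type II cell), against 13.5 and 10.2 TPM for all genes detected there. In the whole crista these medians were 17.3 TPM for the detected members and 8.54 TPM for all detected genes.

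Among RAB GTPases of endosomes and lysosomes, *RAB7A* was the most abundant member of both hair cells. *RAB7A* directs traffic from late endosomes to lysosomes. It lies at chr12:9316696-9351407 (GRCg7b, RefSeq gene model, as are the positions below) and had 26746 reads (2813 TPM) in the type I cell, 36123 (3143 TPM) in the type II cell and 14997 (398 TPM) in the whole crista. Among genes with a symbol it ranked 47th by TPM in the type I cell, 35th in the type II cell and 374th in the whole crista. The gene model overlaps that of *RPN1*, a subunit of the oligosaccharyltransferase of the endoplasmic reticulum, which had 24960, 29669 and 47984 reads in the same order. Counting by strand is not stated, so reads in the overlap cannot be assigned with certainty.

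*RAB11A*, which works at recycling endosomes, lies at chr10:18177451-18193600 and had 8585 reads (467 TPM) in the type I cell, 12640 (644 TPM) in the type II cell and 18484 (221 TPM) in the whole crista. It overlaps *MEGF11*, which had no read in a hair cell and 239 in the whole crista. Its close relative *RAB11B* stood apart from it. *RAB11B* had 23742 reads (268 TPM) in the whole crista, more than *RAB11A*, but 0 reads in the type I cell and 1 in the type II cell, so that it was at least 1716-fold lower in TPM in the type I cell than in the whole crista. *RAB14*, of the route between Golgi and endosomes, lies at chr17:8985826-9001027 and was also far lower in the hair cells, with 169 reads (6.67 TPM) in the type I cell, 114 (4.19 TPM) in the type II cell and 25502 (254 TPM) in the whole crista. *RAB35*, which acts in recycling at the plasma membrane, had 6 reads in the type I cell (95% interval 2.20 to 13.1), 2 in the type II cell and 4057 in the whole crista.

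Several RAB GTPases of early endosomes had no read in the hair cells. *RAB5A*, *RAB5B* and *RAB5C*, which control fusion of early endosomes, had 147, 62.2 and 311 TPM in the whole crista and 0 reads in both cells. The same held for *RAB4A* (96.4 TPM in the whole crista) of fast recycling, for *RAB21* (97.7 TPM) and *RAB22A* (52.4 TPM) of early endosomes, and for *RAB9A* (72.2 TPM), which serves transport between late endosomes and the Golgi. *RAB5C* was the fourth most abundant member of the whole crista, with 20310 reads. Its level was at least 1534-fold lower in the type I and at least 1624-fold lower in the type II cell, taking 3 reads as the limit in each hair cell. *RAB7B*, the paralog of *RAB7A*, had 6.38 TPM in the whole crista and none in the hair cells.

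Another 4 genes of the hair cell set encode RAB GTPases of the endoplasmic reticulum and Golgi. *RAB1B* (chr3:10149684-10162957), needed for transport of new proteins from the endoplasmic reticulum to the Golgi, had 10329 reads (564 TPM) in the type I cell, 17130 (677 TPM) in the type II cell and 33705 (735 TPM) in the whole crista. *RAB18* (chr2:15696031-15709613), of the endoplasmic reticulum and lipid droplets, had 11664 (571 TPM), 13336 (565 TPM) and 21920 (395 TPM) reads in the type I cell, the type II cell and the whole crista. *RAB6A* (chr1:194887173-194948025), of transport within and from the Golgi, had 1268 (187 TPM), 1320 (189 TPM) and 6362 (155 TPM) reads in that order. The TPM of each of these 3 genes lay within 2-fold between either hair cell and the whole crista. *RAB2A* (chr2:112521229-112563927), another gene of the early secretory pathway, was lower in the cells, with 1026 reads (54.4 TPM) in the type I cell, 872 (41.1 TPM) in the type II cell and 8592 (137 TPM) in the whole crista. *RAB2B* had 7.41 TPM in the whole crista and no read in the cells. *RAB18L* (33.1 TPM) and *RAB10L* (38.7 TPM) had reads in the whole crista only, and how the counting divides reads among such related copies is not stated.

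Several RAB GTPases of regulated secretion had no read in a hair cell. *RAB3A*, *RAB3B* and *RAB3C*, which sit on synaptic and secretory vesicles, had 0.815, 6.01 and 13.4 TPM in the whole crista and none in the cells. *RAB27A*, which tethers secretory granules, had 68.4 TPM in the whole crista and none in the cells, as had *RAB8A* (60.5 TPM) and *RAB10* (32.5 TPM) of transport to the plasma membrane. *RAB26*, which is found on secretory granules, had 1055 reads (8.17 TPM) in the whole crista and its 2 reads in the type II cell. In total 12 of the 56 RAB GTPases (21.4%) had a hair cell read, against 9.12% of all genes, and 44 had none. Of those with at least 1 TPM in the whole crista it was 11 of 51 (21.6%), against 18.2% of all genes with a symbol. The family had a median of 41.7 TPM in the whole crista. *RAB17* and *RAB44* had no read in any library.

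Of the 9 RAB effectors and regulators, 1 gene was found in the hair cells. A read in at least 1 hair cell was found for 9.12% of all genes. For genes with a symbol and at least 1 TPM in the whole crista it was 18.2%. The gene found, *RAB11FIP2*, had the largest ratio of hair cell to whole crista of all members. *RAB11FIP2* (chr6:30262339-30294877) binds RAB11 and links recycling endosomes to myosin V. It had 19972 reads (745 TPM) in the type I cell, 18668 (634 TPM) in the type II cell and 1201 (12.3 TPM) in the whole crista, the lowest whole-crista level of the 9 genes of this group. The other 8 had 12.4 to 181 TPM in the whole crista and no read in the hair cells: *RAB11FIP1*, *RAB11FIP3*, *RAB11FIP4* and *RAB11FIP5* of the same family, *RAB3GAP1* and *RAB3GAP2*, which form an enzyme complex that acts on RAB3 and RAB18, and *RAB3IP* and *RAB3IL1*, exchange factors of RAB8. *RAB3IP* was the highest of them, with 11165 reads in the whole crista.

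Of the 59 members named for vesicles, SNAREs or release, 54 were detected in the whole crista and 2 (3.39%) in a hair cell, *STXBP5L* and *SYP*, where 9.12% of all genes had a read in at least 1 hair cell. Counting only genes with at least 1 TPM in the whole crista, it was 2 of 45 (4.44%), against 18.2% of all genes with a symbol. *STXBP5L* encodes tomosyn-2, a syntaxin-binding protein that in mammals holds back SNARE assembly. It lies at chr1:79540080-79731035 and had 2099 reads (55.7 TPM) in the type I cell, 1896 (48.8 TPM) in the type II cell and 2222 (12.6 TPM) in the whole crista. Its paralog *STXBP5*, tomosyn-1, had 1295 reads (6.86 TPM) in the whole crista and none in the cells.

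*SYP* encodes synaptophysin, an abundant membrane protein of synaptic vesicles, and lies at chr12:13595280-13674915. It had 44 reads (95% interval 32.0 to 59.1, 1.92 TPM) in the type I cell, 18 (10.7 to 28.5, 0.714 TPM) in the type II cell and 5139 (61.3 TPM) in the whole crista. The hair cells thus held low but countable amounts, and the counting intervals of the reads in both cells did not overlap.

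None of the 20 SNARE genes had a read in either hair cell, while all 20 were read in the whole crista, 15 of them with at least 1000 reads. Most genes lacked a hair cell read, 90.9% of all genes, and of genes with a symbol and at least 1 TPM in the whole crista, which 19 of the SNARE genes reached, 18.2% had one. Their whole-crista TPM summed to 1099. The highest was *VAMP3*, which fuses recycling endosomes with the plasma membrane, at 221 TPM and 3719 reads. *STX12* (158 TPM), *STX7* (104 TPM) and *STX8* (93.0 TPM) of endosomes followed, with *STX2* (102 TPM) of the plasma membrane and *STX16* (83.0 TPM) of the Golgi. *SNAP23*, *SNAP29* and *SNAP47*, relatives of *SNAP25*, had 58.3, 56.3 and 16.5 TPM. The neuronal isoforms were low in the whole crista too, with 5.34 TPM for *STX1A*, 11.6 TPM for *VAMP1* and 0.168 TPM (13 reads) for *VAMP2*. For *STX12*, with 12414 reads in the whole crista, the limit of 3 reads put the type I cell at least 964-fold and the type II cell at least 1022-fold lower in TPM. For *VAMP2* the same limit lay close to the whole-crista level, so that a difference was not detectable at this depth.

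Among the other STXBP genes, *STXBP3*, the widely expressed Munc18 form, had 21243 reads (221 TPM) in the whole crista and none in a hair cell. It carried the largest limits of all members without a hair cell read, at least 2163-fold lower in the type I and at least 2300-fold lower in the type II cell. Limits of this kind, here and for other members, cover sequenced reads only and not RNA lost before sequencing. The paper warns that a transcript that was not detected may still have been present. The hair cell marker *MYO7A* also had no read in either cell. *STXBP6* and *STXBP4* had 41.6 and 17.4 TPM in the whole crista and no read in a hair cell.

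The synaptotagmin, UNC13 and RIMS members had no read in the hair cells, as held for 90.9% of all genes. The median of each of these families in the whole crista lay between 1 and 10 TPM. Of all genes with a symbol at that level, 4.95% were detected in both hair cells. Of 15 synaptotagmins 14 were detected in the whole crista, with a median of 4.85 TPM over the 15. *SYT11*, which does not bind calcium, led with 117 TPM, followed by *SYT9* with 18.7 TPM and *SYT8* with 12.2 TPM. The fast calcium sensor of neurons, *SYT1*, had 6.46 TPM and its relative *SYT2* 1 read. Of the UNC13 genes, which prime vesicles, *UNC13C* had 17.1 TPM, *UNC13B* 11.6 TPM and *UNC13A* 1 read. Of the RIMS genes, which organise the active zone, *RIMS4* had 24.3 TPM and *RIMS2* 10.5 TPM.

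The remaining vesicle families were scarce in the whole crista as well. Complexins clamp and promote fusion, and of the 4 only *CPLX2* (2.97 TPM) and *CPLX1* (25 reads) were detected, *CPLX3* and *CPLX4* having no read in any library. *SV2A* and *SV2B*, transporter-like proteins of synaptic vesicles, had none in any library either, and *SV2C* had 12 reads. Of the synapsins, which bind vesicles to the cytoskeleton, *SYN3* had 18.8 TPM and *SYN2* 6.24 TPM. With *SYT10*, *RAB17* and *RAB44* these 4 genes made up the 7 members without a read in any of the 3 libraries. In the whole crista, here and throughout, a low level can mean few cells that express the gene or little RNA in each, and these cannot be told apart.

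**Figure D2:**
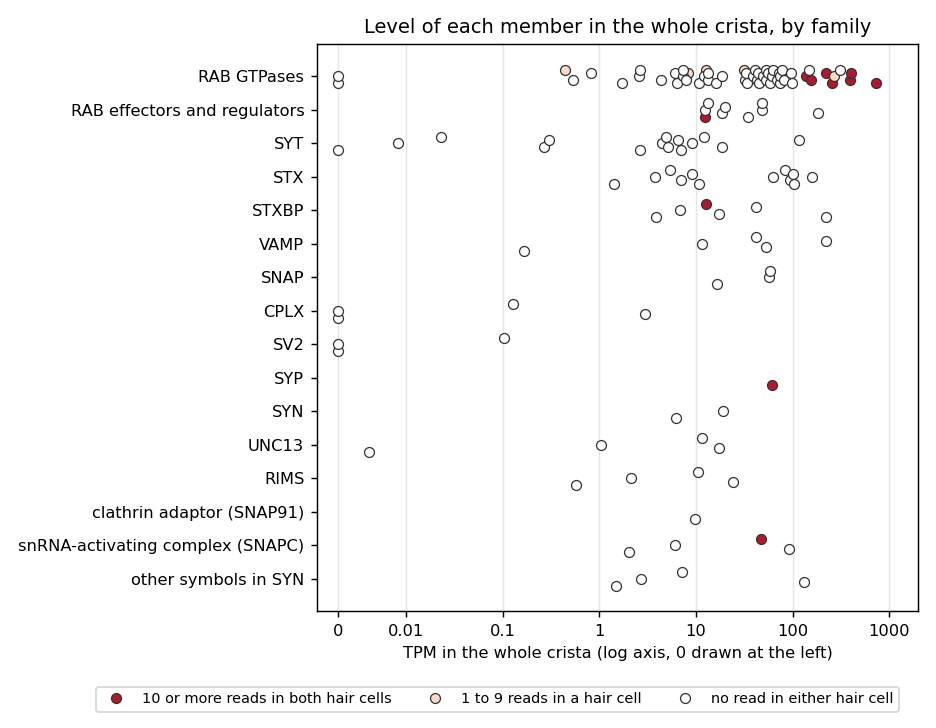
Level of each of the 133 members in the whole crista (TPM, horizontal log axis with 0 drawn at the left), 1 row a family and 1 circle a gene. Filled red circles are the 11 members with 10 or more reads in each hair cell, pale circles the 5 with 1 to 9 reads in a hair cell and open circles the 117 without a hair cell read; the filled circles lie mostly in the RAB row, and the SYT, STX, VAMP and SNAP rows hold open circles only.

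Members with a high level in the whole crista were more often found in the hair cells, but not all of them were. Of the 18 members with at least 100 TPM in the whole crista, 7 were found in both cells, where 40.4% of all genes with a symbol at that level were. Between 30 and 100 TPM it was 3 of 38 (17.7% of all genes with a symbol), and between 10 and 30 TPM 2 of 24 (9.87%). None of the 34 members between 1 and 10 TPM and none of the 19 below 1 TPM was found in both, where 4.95% and 0.676% of all genes were. These bins were chosen after the values were seen. Of the 15 members highest in the whole crista, 7 had at least 10 reads in both hair cells and 7 had none in either: *RAB5C*, *VAMP3*, *STXBP3*, *RAB3IP*, *STX12*, *RAB5A* and *SYNCRIP*. The exception was *RAB11B*, with its single read.

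In all, 16 members (12%) had a read in at least 1 hair cell, against 9.12% of all genes, and 117 (88.0%) had none, against 90.9%. At 1 TPM or more in the whole crista, 15 of 114 members (13.2%) had a hair cell read, against 18.2% of all genes with a symbol at that level. Of the 117, 110 were read in the whole crista, 107 with at least 10 reads, 68 with at least 1000 reads and 10 with at least 100 TPM. They held 60.6% of the members' TPM in the whole crista. Their median whole-crista level, with the 7 genes without any read included, was 12.4 TPM, and for the 11 with 10 or more reads in each cell it was 155 TPM, with a range from 12.3 to 735 TPM. The median gene length was 3661 bases for the 117 and 3099 bases for the 11.

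The levels of the members differed little between the type I and the type II cell. Of the 11 with at least 10 reads in both, 10 lay within 2-fold in TPM. The 1 past 2-fold was *SYP* (9.09%), and 6.99% of the 1687 genes with as many reads were past it. The log2 ratio of type I to type II had an SD of 0.51 over the 11 members and of 0.50 over all 1687 genes, and its median corresponded to a ratio of 1.14 for the members and 1.08 for all genes. With 1000 or more reads in each cell, the SD was 0.25 for 7 members and 0.31 for all 879. The spread over genes is no replicate error, which 1 cell of each type does not give.

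*SYP* was 2.69 times as high in TPM in the type I as in the type II cell, with a counting interval from 1.52 to 4.95. *RAB14* followed with a ratio of 1.59 (1.25 to 2.04) and *RAB2A* with 1.32 (1.21 to 1.45). *RAB11FIP2* had a ratio of 1.17 (1.15 to 1.20) and *STXBP5L* one of 1.14 (1.07 to 1.21). All 5 were higher in the type I cell, and their intervals did not include 1.

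On the other side of 1 stood *RAB11A*, whose type I level was 0.725 times its type II level in TPM (0.705 to 0.745), *RAB1B* with 0.832 (0.812 to 0.853) and *RAB7A* with 0.895 (0.881 to 0.909). For *RAB6A* the ratio was 0.987 (0.913 to 1.07) and for *RAB18* 1.01 (0.986 to 1.04), so that in TPM both intervals included 1. In CPM, reads scaled to the library total without correction for length, the ratio of *RAB1B* was 0.668 and that of *RAB7A* 0.820. The CPM ratios of *RAB18* (0.969) and *RAB6A* (1.06) lay on the other side of 1, and no counting interval was computed for them. The estimated length behind the TPM of *RAB1B* was 1963 bases in the type I cell, against 2535 in the type II cell. As there was a single cell per type, the ratios cannot be set against the variation between cells of 1 type. The type I cell was from E20 and the type II cell from E19. Cell type, embryonic day and embryo therefore cannot be told apart in these ratios.

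**Figure D3:**
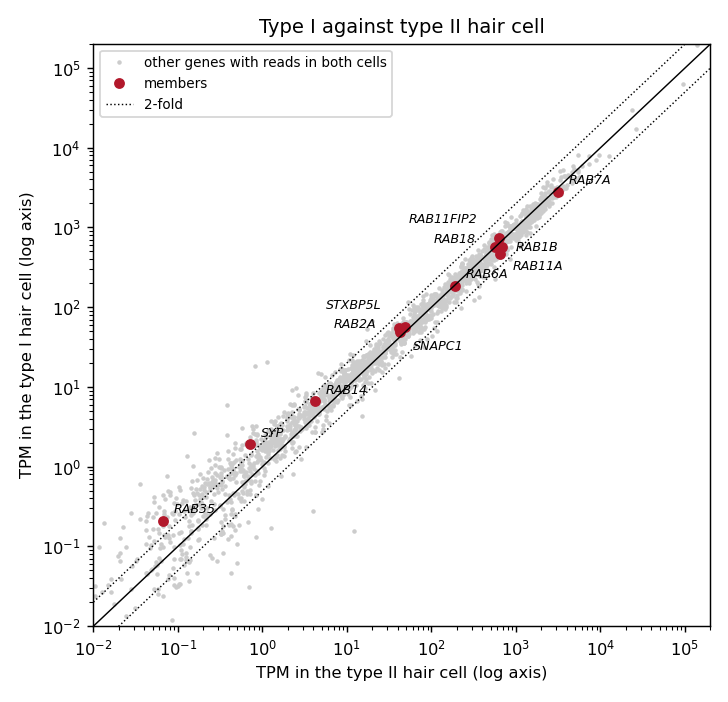
TPM in the type I hair cell (vertical log axis) against TPM in the type II hair cell (horizontal log axis). Grey points are other genes with reads in both cells and red points the 12 members; the solid line marks equal levels and dotted lines 2-fold. Among the members with 10 or more reads in each cell, *SYP* lies outside the dotted lines; *RAB35*, also outside, has 6 and 2 reads.

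*RAB7A* stood first and *RAB14* and *SYP* last in both cells, while the genes between them were not all in the same order. In the type I cell *RAB7A* was followed by *RAB11FIP2*, *RAB18*, *RAB1B*, *RAB11A* and *RAB6A*, then by *STXBP5L*, *RAB2A* and *SNAPC1*, and last by *RAB14* and *SYP*. The counting intervals of *RAB18* and *RAB1B*, of *STXBP5L* and *RAB2A*, and of *RAB2A* and *SNAPC1* overlapped. The TPM ratios of these neighbours were 1.01, 1.02 and 1.12 in that order. Overlap does not show that the levels were equal, and no interval was computed for the ratios between neighbours. In the type II cell *RAB7A* was followed by *RAB1B*, *RAB11A*, *RAB11FIP2* and *RAB18*. There *RAB1B* and *RAB11A* thus stood above *RAB11FIP2* and *RAB18*, the reverse of the type I cell. From *RAB6A* on the order was that of the type I cell, except that *SNAPC1* stood above *RAB2A*. The intervals of *RAB11A* and *RAB11FIP2* and of *SNAPC1* and *RAB2A* overlapped in the type II cell. *RAB7A* exceeded the next gene by 3.78 times in the type I cell.

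Against the whole crista, 4 members were at least 2-fold higher in both hair cells and 112 at least 2-fold lower, of the 123 members with at least 10 reads in some library. Over all genes 4.13% were higher and 87.2% lower by this rule, so that the members' shares, 3.25% and 91.1%, lay near those of the transcriptome. Of the 112, 104 had no hair cell read and entered with the limit of 3 reads. The 4 higher genes were *RAB11FIP2*, *RAB7A*, *STXBP5L* and *RAB11A*. The other 7 were not past 2-fold in both cells, and they were *RAB1B*, *RAB6A*, *RAB18* and *SNAPC1*, with *CPLX1*, *SV2C* and *VAMP2*, which are too low in the whole crista to show a difference.

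*RAB11FIP2* was 60.6-fold higher in TPM in the type I and 51.6-fold higher in the type II cell than in the whole crista. *RAB7A* was 7.06-fold and 7.89-fold higher in the type I and type II cell, *STXBP5L* 4.42-fold and 3.88-fold, and *RAB11A* 2.11-fold and 2.91-fold. *RPN1*, which overlaps *RAB7A*, had 1184 TPM in the type I cell, 1383 TPM in the type II cell and 454 TPM in the whole crista. *RAB18* (1.45 and 1.43 times the whole-crista TPM in the type I and type II cell) and *RAB6A* (1.20 and 1.22 times) lay above 1 but short of 2-fold. *RAB1B* lay at 0.767 and 0.922 times the whole-crista TPM, *RAB2A* at 0.397 and 0.3 times, *SYP* at 0.0313 and 0.0116 times and *RAB14* at 0.0262 and 0.0165 times.

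These ratios depend on the unit. In CPM the ratio to the whole crista of *RAB11FIP2* was 104 for the type I cell and 87.7 for the type II cell, that of *RAB7A* 11.2 and 13.6, and that of *RAB11A* 2.91 and 3.86. *RAB18* moved past 2-fold, to 3.33 and 3.43, and *RAB1B* changed side, to 1.92 and 2.87. *RAB2A*, lower by over 2-fold in TPM, was at 0.747 and 0.573 and so no longer past 2-fold, and *SNAPC1* was at 1.78 and 1.5, the type II value having been 0.915 in TPM. Of the 22 ratios of the 11 genes, 16 differed by more than 1.5 times between TPM and CPM. The estimated length of *RAB1B* was 1963, 2535 and 1110 bases in the type I cell, the type II cell and the whole crista. That of *RAB18* was 2189, 2366 and 1343 bases. Across the 1687 genes counted above, the median ratio of the whole-crista length to that in the type I cell was 0.996. *RAB11A*, at 1971, 1968 and 2020 bases, differed little in length, yet its type I ratio was 2.11 in TPM and 2.91 in CPM. How much of each change goes with length was not tested.

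**Figure D4:**
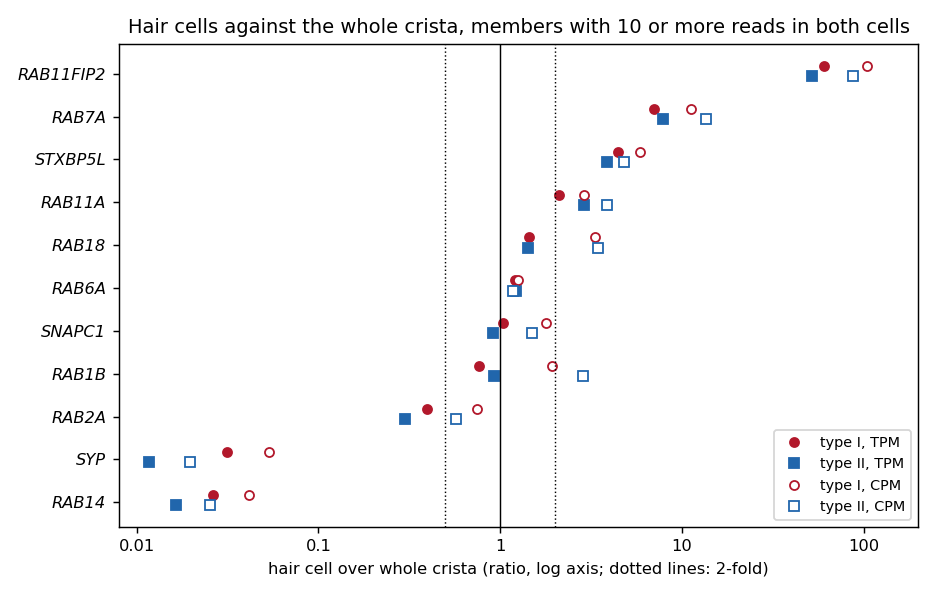
Ratio of each hair cell to the whole crista (horizontal log axis) for the 11 members with at least 10 reads in both cells, in TPM (filled) and CPM (open), for the type I (red circles) and the type II hair cell (blue squares). The solid line marks equal levels and the dotted lines 2-fold; 4 genes lie to the right of the dotted line by TPM in both cells, and *RAB1B* and *RAB18* move most to the right in CPM.

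The members that share the letters but not the pathway behaved as follows. *SNAPC1* (chr5:53467191-53475291), a subunit of the complex that starts transcription of small nuclear RNAs, had 845 reads (48.5 TPM) in the type I cell, 790 (42.6 TPM) in the type II cell and 2969 (46.6 TPM) in the whole crista, with a ratio of type I to type II of 1.14 (1.03 to 1.26). The other 3 subunits had no read in the cells, although *SNAPC5* had 91.0 TPM in the whole crista. *SNAP91*, a clathrin adaptor of synaptic vesicle retrieval, had 9.76 TPM in the whole crista and none in the cells. *SYNCRIP*, an RNA-binding protein, had 129 TPM there and none in the cells, and *SYNDIG1* had 7.2 TPM and none.

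Genes of the same pathways under other names were looked at in 4 lists. Of all genes with a symbol, 11.8% were detected in both hair cells. For those with at least 1 TPM in the whole crista it was 15%. Of 30 further genes of the fusion machinery, 6 were detected in the type I cell, 10 in the type II cell and 30 in the whole crista, and 5 in both cells (16.7%). With at least 10 reads in both, these were *BET1* and *GOSR2*, SNAREs of the Golgi, *NAPB*, a cofactor of SNARE disassembly, and *VPS18*, a subunit of the lysosomal tethering complexes. *VPS18* was the highest, with 5.70 TPM in the type I cell, 5.28 TPM in the type II cell and 16 TPM in the whole crista. *SNAP25* had 0 and 4 reads in the type I and type II cell, and *OTOF*, encoding otoferlin, 2 and 0, while the whole crista had 335 and 14019 reads of these genes. Reads of this number do not separate the cells.

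Of 43 further genes of synaptic vesicles and the active zone, 6 were detected in the type I cell, 5 in the type II cell and 40 in the whole crista. Both cells held 4 (9.3%, beside the same 11.8% and 15%). The 3 with at least 10 reads in both were *SYNGR1*, *CACNA1D* and *CTBP1*. *SYNGR1*, synaptogyrin-1 of the synaptic vesicle membrane and a relative of synaptophysin, had 5160 reads (135 TPM) in the type I cell, 13676 (360 TPM) in the type II cell and 1601 (9.07 TPM) in the whole crista, a ratio of type I to type II of 0.374. This is the opposite direction to *SYP*. *CACNA1D*, the calcium channel of hair cell ribbon synapses, had 101, 149 and 12.5 TPM in that order.

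Of 50 further genes of RAB regulation, 12 were detected in the type I cell, 11 in the type II cell and 49 in the whole crista. Both cells held 11 (22%, beside the same 11.8% and 15%). *RILP*, an effector that binds RAB7 on late endosomes and lysosomes, had 9349 reads (1091 TPM) in the type I cell, 7639 (950 TPM) in the type II cell and 1013 (23.4 TPM) in the whole crista, 46.7 and 40.7 times the whole-crista level. *TBC1D24* (59.4, 66.1 and 9.82 TPM in the type I cell, the type II cell and the whole crista) and *DENND2A* (107, 107 and 22.6 TPM in that order) carry domains of RAB-inactivating and RAB-activating proteins. *RILP*, *TBC1D24* and *DENND2A* were more than 2-fold higher in TPM in both cells than in the whole crista. Reads of *APPL1* (172 and 155 in the type I and type II cell), *APPL2* (575 and 435) and *RIN2* (182 and 126), which act with RAB5 on early endosomes, were found in both cells, all below the whole crista in TPM.

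Of 32 further genes of vesicle retrieval, 6 were detected in both cells (18.8%, beside the same 11.8% and 15%) and 31 in the whole crista. *BIN1*, which bends membranes, had 368, 309 and 48.8 TPM in the type I cell, the type II cell and the whole crista. *CLTC*, the clathrin heavy chain, had 9.13, 8.09 and 148 TPM in that order, and *AP2A2*, a subunit of the clathrin adaptor of the plasma membrane, 8.66, 5.12 and 214 TPM. The lists are small, and nothing particular to any of them was tested.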

How the data were processed

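Cytoplasm of 1 type I and 1 type II hair cell and RNA of pooled whole cristae were amplified with SMART-Seq chemistry from polyA RNA, the hair cells being sequenced as single reads of 100 bp and the crista as read pairs. The deposited tables give, for 30108 Ensembl genes in every library, estimated counts (not always whole numbers) and the authors' TPM values beside gene lengths and effective lengths. The submitters' processing notes name bcl2fastq 2.20.0.422 and DRAGEN, and GRCg7b and galGal4. The identifiers are those of GRCg7b; for the single cells the paper names no pipeline. Deposited values were used unchanged.

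The members and lists were chosen with earlier results of these data known. Named by rule were the members with a hair cell read, the 15 highest in the whole crista, the highest of each family, those without a read in any library and those of other families; further members and list genes were named after their values were seen. A gene was detected at 1 estimated read; ratios of TPM needed 10 or more reads in each hair cell (in any library, where the whole crista was compared), and a library with 0 reads entered with 3 reads (0.278, 0.251 and 0.0445 CPM in the type I cell, the type II cell and the whole crista). Intervals are exact Poisson 95% intervals of the rounded estimated reads and exact intervals of a ratio of Poisson counts; they were tested on simulated data. CPM was computed from the deposited estimated counts. Alternatives were other read and TPM thresholds, CPM, CPM without mitochondrial genes, scaling by the median ratio and a 4-fold threshold. Positions and overlaps are from RefSeq gene models of GRCg7b, matched by symbol for 132 of 133 members. Calculations ran in Python 3.11.15 with scipy 1.17.1, pandas 2.3.3 and numpy 2.4.6, and plots in matplotlib 3.10.9.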

Additional observations from a re-analysis of the deposited data

How the results depend on the processing

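Counts at low levels moved with the threshold. At 10 TPM 9 members were detected in the type II cell (15 at 1 read) and 80 in the whole crista (126). Members detected in 1 hair cell alone, 4 at 1 read, were 1 at 3 reads, 0 at 10 reads, 1 at 1 TPM and 0 at 10 TPM. The detection counts of the type I cell and of both cells stayed within 1.5 times (9 to 13 and 9 to 12). Members at least 2-fold higher in both hair cells than in the whole crista, 4 in TPM, were 5 in CPM, 6 in CPM without mitochondrial genes and 2 at 4-fold; those lower, 112 in TPM, were 107 in CPM, 106 at 4-fold and 4 when genes without a read were left out. The members' share of a library was 0.551% of TPM and 0.812% of reads without mitochondrial genes in the type I cell, 0.599% and 0.93% in the type II cell, and 0.698% and 0.748% in the whole crista. The cause of these changes is the changed threshold, unit or total itself. Members within 2-fold between the hair cells numbered 10 in TPM and under all 5 alternatives tried. Of the 11 ratios of type I to type II, those of *RAB18* and *RAB6A* lay on the other side of 1 in CPM, and the largest factor between TPM and CPM was 1.25. Depth limits members with few whole-crista reads most, and no leave-one-out or paired analysis was possible because each group has 1 library.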
